A study of Rattus norvegicus with 6 samples.

Results

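Voltage-gated calcium channels and the RGK GTPases that restrain them were followed in rat cerebral arteries after subarachnoid haemorrhage (SAH), a bleed over the surface of the brain. The group held 10 genes of 18166 measured: 4 for pore-forming channel subunits (Cacna1c, Cacna1d, Cacna1g and Cacna1h), 3 for auxiliary subunits (Cacnb2, Cacnb3 and Cacna2d1) and 3 for RGK proteins (Rrad, Rem1 and Gem). The genes were chosen by name, and the probe set of a gene by its mean level over all 6 arrays, the brightest of those annotated to that gene alone. Each of the 10 had only 1 such probe set, so the level decided nothing here. The group was put together with earlier results in view, among them the low level of Rrad after SAH.

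The samples were cerebral arteries of male rats, with 3 arrays of animals at 6 hours of SAH (numbered 1, 4 and 5) and 3 arrays of sham-operated animals (6, 7 and 8), each made from 6 µg of total RNA. The labels give no strain, age or treatment, no method of inducing the bleed, no time for the sham operation and no statement on pooling of arteries. Separate animals are not stated for the arrays either, and each p-value therefore refers to the spread among arrays, which may be technical. Values are log2 expression values, for which a difference of 1 means a doubling, and their medians by array lay between 7.31 and 7.37. All 9 measured smooth muscle markers read above the array's own median on all 6 arrays. So did every measured pericyte, endothelial, fibroblast and astrocyte marker, and this reading therefore cannot tell arteries from adjoining tissue. Sham array 8 and SAH array 5 carried more neutrophil marker signal than the other arrays of their groups, as given below beside Gem.

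In arterial smooth muscle, membrane depolarisation opens L-type calcium channels and the calcium that enters drives contraction. A channel consists of a pore-forming alpha-1 subunit, a cytoplasmic beta subunit that brings it to the membrane and an alpha-2-delta subunit at the outer face. T-type channels, formed by other alpha-1 subunits, open at more negative voltages. RGK proteins (Rad, Rem and Gem/Kir) are small GTP-binding proteins that associate with beta subunits and reduce current through L-type channels.

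Of the 2 genes of L-type pores in the group Cacna1d was called lower and Cacna1c was not called. The DNA upstream of each is printed as a description of these windows. RefSeq promoter entries matched 6 of the 10 members (Cacna1c, Cacna1d, Cacnb2, Cacnb3, Cacna2d1 and Rem1), with 9 entries in all. The sequences are the 250 bases before the annotated start site in build GRCr8, written 5′ to 3′ on the gene's strand, here minus for both. Capitals mark the core of the cAMP response element, TGACG. Cacna1c lies at chr4:154051749-154051998 and Cacna1d at chr16:5527550-5527799.
Cacna1c: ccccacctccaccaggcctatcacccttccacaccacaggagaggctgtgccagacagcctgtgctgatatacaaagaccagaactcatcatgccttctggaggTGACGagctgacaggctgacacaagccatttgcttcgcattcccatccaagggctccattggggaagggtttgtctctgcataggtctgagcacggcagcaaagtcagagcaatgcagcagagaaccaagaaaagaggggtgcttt
Cacna1d: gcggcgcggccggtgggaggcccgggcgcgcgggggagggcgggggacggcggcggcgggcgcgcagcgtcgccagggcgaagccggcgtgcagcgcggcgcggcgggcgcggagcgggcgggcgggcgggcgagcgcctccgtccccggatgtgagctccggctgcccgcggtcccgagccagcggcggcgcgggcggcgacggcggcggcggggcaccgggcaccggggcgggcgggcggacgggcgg

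The Cacna1d window was 88.8% G and C and held 56 CpG dinucleotides, whereas the Cacna1c window was 54.4% G and C and held 3. Over all 33469 promoter windows of this length the medians were 51.2% and 5, and 3 windows, that of Cacna1d among them, had as high a GC content as Cacna1d. Members that were not called had GC-rich windows too, at 76.4% for Cacnb3, 76.8% to 78.8% for Cacna2d1 and 68.0% for Rem1. The windows of Cacnb2 were at 73.2% and 45.6%. A part of base content in the calls was not tested. The windows were searched on both strands for the CArG box, found in 501 of the 33469 windows, and for the cAMP response element TGACGTCA (1.59%), which contains the core given above. The AP-1 motif TGANTCA was searched as well (6.34% of all windows), as was an NFAT-like core spelled GGAAANNG (21.6%). The E-box CACGTG was the last motif searched (5.59% of all windows). Cacna1d held none of these. Cacna1c held TGACG at positions -146 to -142 before the start site, a core found in 18.2% of all windows. The same core occurred in windows of Cacnb2 and Cacna2d1. The NFAT-like core GGAAANNG also matched on the minus strand in other windows of these genes, at -191 to -184 for Cacnb2. These letters are a description of the windows and not of any factor's binding.

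Of the 10 members, 2 fell after SAH, none rose and 8 did not pass the threshold (limma, two-sided, adjusted p under 0.05 over all 36495 probe sets). At an unadjusted p under 0.05, 3 members were lower and 1 higher, where 18.6% of all genes reached such a p, 10.5% lower and 8.16% higher. Over all 18166 genes 1.29% were called, 0.33% lower and 0.963% higher. The members that fell were Rrad, the RGK protein Rad, at 2.73-fold lower, and Cacna1d, the pore of the L-type channel Cav1.3, at 2.03-fold lower. The median difference of the members, SAH minus sham, was -0.07, and that of all genes was -0.01. SAH and sham values did not overlap for 4 of the 10 members, 3 lower and 1 higher after SAH. Of all genes, 26.8% did not overlap, 15.4% lower and 11.4% higher.

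**Figure D1:**
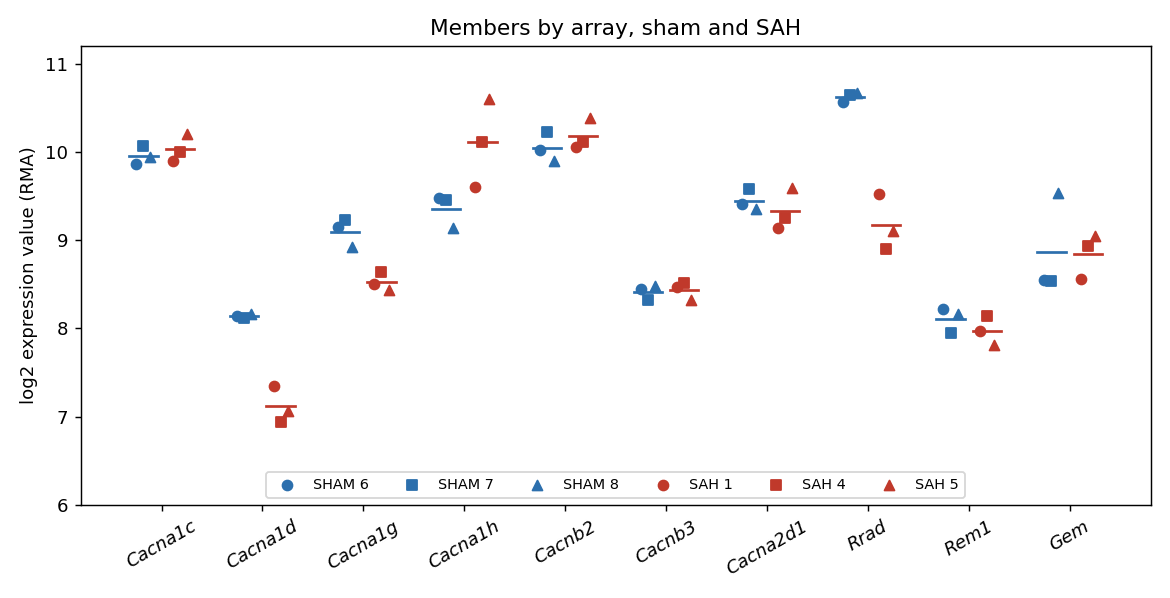
Log2 expression values (vertical axis) of the 10 members on the 3 sham arrays (blue) and 3 SAH arrays (red), with 1 symbol per array and a line at each group mean. Rrad reads 10.57 to 10.66 in sham and 8.90 to 9.52 in SAH, and Cacna1c overlaps between the groups.

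Among the L-type pores, Cacna1d read 8.13, 8.11 and 8.16 in sham arrays 6, 7 and 8, and 7.34, 6.94 and 7.06 in SAH arrays 1, 4 and 5. The sham values lay within 0.05 of each other and every SAH value lay below them. The difference was -1.02 ± 0.13 (SE; 7.11 ± 0.21 against 8.14 ± 0.02, mean ± SD, n = 3 each; limma adjusted p = 0.0242). The Cacna1d probe set (17709702) stood above the array's own median on the 3 sham arrays only, and the fold of a probe set at low level can be understated by the normalization.

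Cacna1c encodes Cav1.2, the main L-type pore of arterial smooth muscle. It read 9.86, 10.07 and 9.94 in sham arrays 6, 7 and 8, and 9.90, 9.99 and 10.20 in SAH arrays 1, 4 and 5. The groups overlapped, and the difference was 0.08 (95% interval -0.20 to 0.36; limma adjusted p = 0.831). This interval leaves room for a fold of 0.868 to 1.28. Within each array, Cacna1d minus Cacna1c was -1.72, -1.95 and -1.78 in sham and -2.55, -3.06 and -3.14 in SAH. The groups of this within-array difference did not overlap (exact two-sided permutation p = 0.1, the smallest that 3 against 3 arrays allow; 0.14 adjusted over 7 pairs, which were chosen after the values were seen).

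The differences of the T-type pore genes had opposite signs, and neither passed the threshold. Cacna1g, which encodes Cav3.1, read 9.14, 9.22 and 8.92 in sham arrays 6, 7 and 8, and 8.50, 8.64 and 8.43 in SAH arrays 1, 4 and 5. All SAH values were below all sham values, with a difference of -0.57 ± 0.12 (SE; n = 3 each; limma adjusted p = 0.103). With dim probe sets left out, or with the fit made over genes rather than probe sets, fewer features were tested and Cacna1g passed (adjusted p = 0.0409 and 0.0404), its difference staying at -0.57.

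Cacna1h, which encodes Cav3.2, read 9.48, 9.45 and 9.14 in sham arrays 6, 7 and 8, and 9.60, 10.12 and 10.60 in SAH arrays 1, 4 and 5. The SAH arrays were all higher but spread over about 1 log2 unit, with SAH array 1 only slightly above the sham values. The difference was 0.75 ± 0.25 (SE; n = 3 each; limma adjusted p = 0.239). It was 0.51 without SAH array 5 and 1.00 without SAH array 1, and it passed in no alternative run (adjusted p 0.0625 to 0.473). Within each array, Cacna1h minus Cacna1g was 0.33, 0.23 and 0.22 in sham and 1.10, 1.47 and 2.17 in SAH (exact two-sided permutation p = 0.1, the smallest possible; 0.14 adjusted over the 7 pairs). The group means of this within-array difference lay 1.32 log2 units apart.

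**Figure D2:**
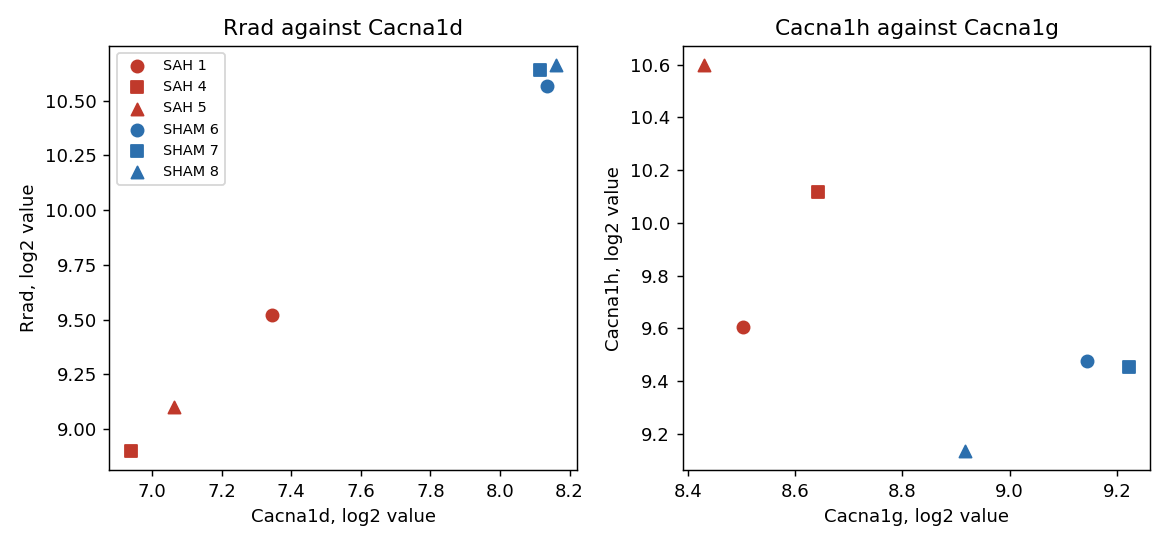
Log2 values of Rrad against Cacna1d (left) and of Cacna1h against Cacna1g (right), with 1 point per array, blue for sham and red for SAH. On the left the 6 arrays lie near a line, and on the right the SAH arrays lie at lower Cacna1g and higher Cacna1h than the sham arrays.

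The auxiliary subunits overlapped between the groups. Cacnb2 encodes a beta subunit of L-type channels, and it read 10.02, 10.23 and 9.90 in sham arrays and 10.05, 10.11 and 10.39 in SAH arrays (difference 0.14, 95% interval -0.19 to 0.46; limma adjusted p = 0.718). Cacnb3, another beta subunit gene, read 8.44, 8.32 and 8.48 in sham and 8.47, 8.52 and 8.32 in SAH (difference 0.02, 95% interval -0.23 to 0.26; limma adjusted p = 0.961). Cacna2d1 encodes an alpha-2-delta subunit, the binding site of gabapentin. It read 9.40, 9.58 and 9.35 in sham and 9.14, 9.25 and 9.58 in SAH (difference -0.12, 95% interval -0.46 to 0.22; limma adjusted p = 0.770). For these 3 genes and Cacna1c, the intervals do not reach a change of 0.5 log2 units in either direction.

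Among the RGK proteins, Rrad (probe set 17727551) showed the largest measured difference of all members. It read 10.57, 10.64 and 10.66 in sham arrays 6, 7 and 8, and 9.52, 8.90 and 9.10 in SAH arrays 1, 4 and 5. The sham arrays were again close together and the SAH arrays lay at least 1 log2 unit below the lowest of them. The difference was -1.45 ± 0.16 (SE; 9.17 ± 0.32 against 10.62 ± 0.05, mean ± SD, n = 3 each; limma adjusted p = 0.0197).

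Rem1 encodes Rem, a relative of Rad that also binds beta subunits. It read 8.22, 7.94 and 8.16 in sham and 7.97, 8.14 and 7.81 in SAH, and the groups overlapped (difference -0.14, 95% interval -0.44 to 0.17; limma adjusted p = 0.693). Rem2, the remaining family member, differed by -0.05 (limma adjusted p = 0.915). Within each array, Rrad minus Rem1 was 2.35, 2.70 and 2.50 in sham and 1.55, 0.76 and 1.29 in SAH, without overlap (exact two-sided permutation p = 0.1, the smallest possible; 0.14 adjusted over the 7 pairs).

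Gem, an RGK protein whose gene is induced when cells are stimulated, read 8.54, 8.53 and 9.53 in sham arrays 6, 7 and 8, and 8.56, 8.93 and 9.04 in SAH arrays 1, 4 and 5. The highest value of all 6 was that of sham array 8, and the other sham arrays were the lowest. The difference was -0.02 (95% interval -0.70 to 0.66; limma adjusted p = 0.983), and it was 0.31 ± 0.17 (SE; adjusted p = 0.513) without sham array 8. Other stimulation-induced genes were also highest in sham array 8. There Fos read 11.68, against 10.78 and 10.16 in sham arrays 6 and 7, and 9.48, 9.45 and 10.59 in SAH arrays 1, 4 and 5. Nr4a1 read 11.12 in sham array 8, against 9.26 and 9.19 in sham arrays 6 and 7, and 9.80, 9.54 and 10.62 in SAH arrays 1, 4 and 5.

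Among the sham arrays, the means of neutrophil, neuronal, astrocyte, macrophage and skeletal and heart muscle markers were also highest in sham array 8. The astrocyte mean there was 9.85, against 9.22 and 9.43 in sham arrays 6 and 7 and 8.88 to 9.69 in SAH. The mean of 10 measured neutrophil markers was 7.12, 7.20 and 9.12 in sham arrays 6, 7 and 8, and 8.65, 8.70 and 9.69 in SAH arrays 1, 4 and 5. The mean of 10 neuronal markers was 7.62 in sham array 8, against 7.17 and 7.12 in the other sham arrays and 7.06 to 7.46 in SAH. The neuronal markers were mixed, with Rbfox3 and Gad1 at their lowest sham values in sham array 8 (7.31 and 6.49). For Rrad and Cacna1d, sham array 8 read within 0.10 of the other sham arrays. The part of these cells in the values of Gem, Rrad and Cacna1d was not tested.

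**Figure D3:**
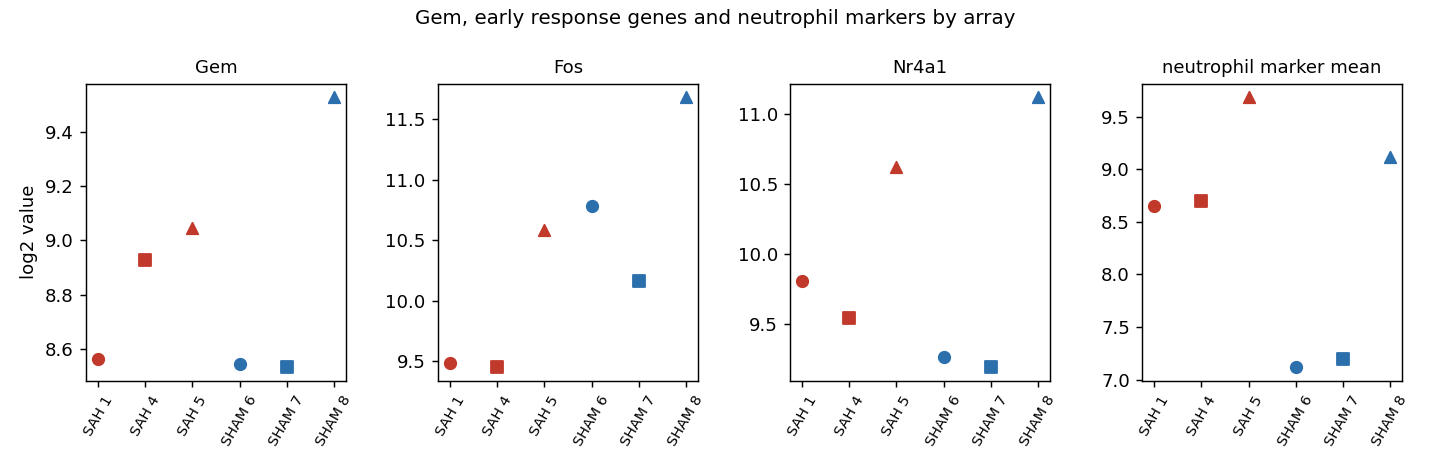
Log2 values of Gem, Fos, Nr4a1 and the mean of the neutrophil markers (vertical axes, each with its own range) on the 3 SAH arrays (red) and 3 sham arrays (blue). For Gem, Fos and Nr4a1 sham array 8 is the highest of all 6 arrays.

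Rrad and Cacna1d followed each other closely, as the scatter plot of their values shows. Over the 6 arrays Pearson's r was 0.999, and after subtraction of the group means it was 0.99. The second r rests mainly on the 3 SAH arrays. The SDs of Cacna1d and Rrad were 0.02 and 0.05 in sham, against 0.21 and 0.32 in SAH. Among 9083 brighter genes, those above the median of all genes, Rrad was the gene with the pattern most like that of Cacna1d. In SAH array 1 both were the highest of the SAH arrays, and in SAH array 4 both were the lowest. These points are only 6 arrays of 2 groups, which share their RNA and normalization, so r is a description. Within each array, Rrad minus Cacna1d was 2.43, 2.53 and 2.50 in sham and 2.18, 1.96 and 2.04 in SAH (exact two-sided permutation p = 0.1, the smallest possible; 0.14 adjusted over the 7 pairs). This test cannot reach 0.05 at this size. The Cacna1d probe set did not stand above the array's own median on the SAH arrays, and its difference may be understated. No conclusion was therefore drawn on which fall was larger.

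The other genes most like Rrad over the 6 arrays were Ggn (r = 0.998), Vps13b (0.997), Kiaa1671 (0.996), Grb14 (0.994) and Csnk1g2 (0.994). Of these only Grb14, which encodes an adaptor that binds the insulin receptor, was called, with a difference of -1.12 ± 0.14 (SE; n = 3 each; limma adjusted p = 0.0247). Most opposed to Rrad were Ktn1, Rasa4 and Oas1a (r = -0.998 for each). Oas1a, an interferon-induced antiviral enzyme, was also the gene most opposed to Cacna1d (r = -0.999) and rose by 1.78 ± 0.18 (SE; n = 3 each; limma adjusted p = 0.0116). After Rrad, the genes most like Cacna1d were Cyb5r1 (r = 0.997), Vps13b (0.996), Grb14 (0.995) and Ggn (0.994). These correlations follow the split of 6 arrays into 2 groups and are given as a description.

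Over the whole family of voltage-gated calcium channel subunits, 24 of 26 genes were measured by a probe set of their own, and 1 of them fell (Cacna1d), none rose and 23 did not pass. The median difference was -0.07. Of the 24 probe sets, 10 stood above the array's own median on all 6 arrays, 10 on none and 4 on some, and differences of dim genes can be understated. Among the 17 subunit genes outside the group, the largest difference was that of Cacna1e, the pore of R-type channels. It read 7.11, 6.93 and 7.22 in sham arrays 6, 7 and 8, and 7.72, 8.42 and 8.50 in SAH arrays 1, 4 and 5, with no overlap. The difference was 1.13 ± 0.22 (SE; n = 3 each; limma adjusted p = 0.0833), and it passed without dim probe sets, with array weights, with the fit over genes and without SAH array 1 (adjusted p = 0.0354, 0.0413, 0.0340 and 0.00768). Its probe set stood above the array's own median on the 3 SAH arrays only. Cacna2d3, an alpha-2-delta subunit gene, differed by -0.40 ± 0.09 (adjusted p = 0.116) and passed without dim probe sets and with the fit over genes (adjusted p = 0.0435 and 0.0428).

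**Figure D4:**
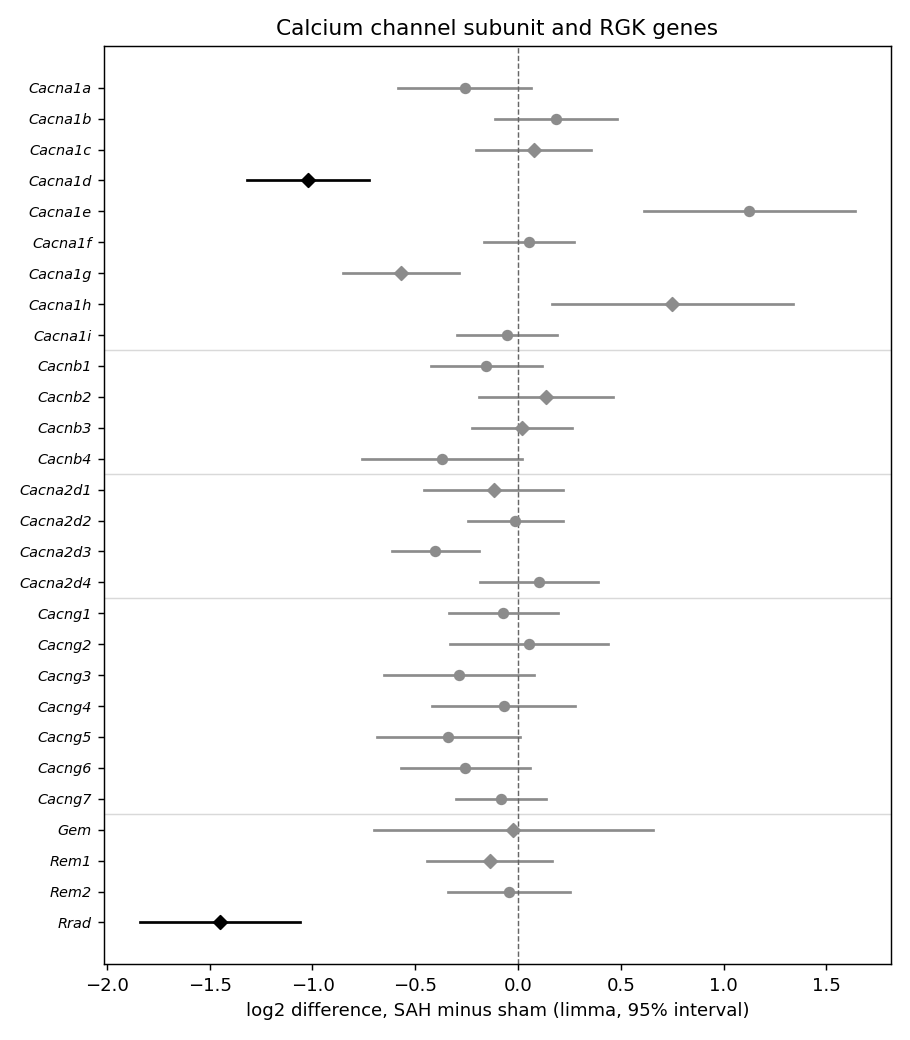
Log2 difference, SAH minus sham (horizontal axis, point with limma's 95% interval), for 24 calcium channel subunit genes and 4 RGK genes, with diamonds for the 10 members, circles for other genes and black for those with an adjusted p under 0.05. Rrad at -1.45 and Cacna1d at -1.02 are the black points, and Cacna1e at 1.13 lies farthest to the right.

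Genes for proteins that work on these channels were read from lists of related genes. Of 13 measured channel modulators none passed (median -0.14). Prkaca, the catalytic subunit of protein kinase A, which phosphorylates the channel complex and Rad, differed by -0.87 ± 0.16 (SE; limma adjusted p = 0.0811), and passed without dim probe sets (0.0338), with the fit over genes (0.0319) and without SAH array 1 (0.0312). Stac, which encodes an adaptor of L-type channels, differed by -0.95 ± 0.25 (limma adjusted p = 0.162). The values of both were lower in all SAH arrays than in any sham array. The protein kinase C genes Prkca and Prkcb differed by -0.51 ± 0.17 and -0.75 ± 0.27 (SE; limma adjusted p = 0.236 and 0.276).

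Of 15 measured partners of RGK proteins none passed (median -0.09). The calmodulin gene Calm2 differed by -0.68 ± 0.15 and the calmodulin kinase gene Camk2g by -0.69 ± 0.16 (SE, n = 3 each; limma adjusted p = 0.118 and 0.121). Ywhah, of the adaptor family that binds phosphorylated RGK proteins, differed by 0.53 ± 0.16 (limma adjusted p = 0.201). Camk2g and Ywhah passed without SAH array 1 (0.0430 and 0.0299). Of 17 measured genes of calcium-responsive transcription 1 rose and none fell (median -0.07). Nfatc4, a transcription factor activated by calcineurin, rose 1.74-fold, from 9.62 ± 0.10 to 10.42 ± 0.12 (mean ± SD, n = 3 each; limma adjusted p = 0.0359), and lost its call without each of SAH arrays 4 and 5 and sham arrays 6, 7 and 8. The calcineurin inhibitor gene Rcan1, itself induced through calcineurin, differed by -0.56 ± 0.15, its relative Rcan2 by -0.52 ± 0.15 and the muscle transcription factor gene Mef2c by -0.45 ± 0.12 (SE; limma adjusted p = 0.169, 0.193 and 0.174). Rcan2 passed without SAH array 1 (0.0451).

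Of 9 measured smooth muscle markers 1 fell (Smtn) and none rose, and the mean of the 9 was 11.82 to 11.92 in SAH and 12.05 to 12.22 in sham arrays. Their differences ran from -1.18 to 0.02 with a median of -0.20. The mean of 6 pericyte markers was 10.55 to 10.68 in SAH and 10.96 to 11.30 in sham arrays, and none was called. In bulk arteries, fewer cells of a type and less RNA per cell cannot be told apart. The difference of Rrad (-1.45) lay below that of every measured smooth muscle and pericyte marker. That of Cacna1d (-1.02) lay within their range, above those of Smtn (-1.18) and Abcc9 (-1.08). The difference of Cacna1c (0.08) lay above all of them, the highest being Pdgfrb at 0.06. The part of cell composition in the falls of Rrad and Cacna1d was not tested.

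The mean of markers of skeletal and heart muscle, where Rrad is known to be abundant, overlapped between the groups. None of 7 measured was called, and their mean was 7.60 to 7.73 in SAH and 7.64 to 7.80 in sham arrays. Of the single markers, Myh6 did not overlap (difference 0.28; limma adjusted p = 0.310), at a low level. The 10 neuronal markers, of cells that use most channel subunits, had means of 7.06 to 7.46 in SAH and 7.12 to 7.62 in sham arrays, and none was called. Fibroblast markers (8 measured, none called) had means of 11.22 to 11.69 in SAH and 11.83 to 11.92 in sham arrays, and macrophage markers (8 measured, none called) 8.98 to 9.34 and 9.36 to 9.75. The means of endothelial markers (8 measured, none called) overlapped, at 10.28 to 10.50 and 10.33 to 10.64. Single endothelial markers went both ways without overlap. Cdh5 was higher in SAH (0.61 ± 0.11, SE; limma adjusted p = 0.0776). Tek (-0.50 ± 0.15) and Vwf (-0.29 ± 0.12) were lower (SE; limma adjusted p = 0.212 and 0.352). The means of astrocyte (4 measured), oligodendrocyte (4), lymphocyte (6) and erythroid markers (3) overlapped too, and none of these markers was called. The differences of the means were -0.30, 0.35, 0.17 and 0.33. Single markers among these, Mag, Mog, Lck, Cd3e and Slc4a1, were higher in every SAH array than in any sham array.

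The calls of Rrad and Cacna1d held without SAH array 1 (adjusted p = 0.00359 and 0.00770) and were lost when any other single array was left out, which also lowers the number of arrays. For Rrad the adjusted p was then 0.0720 and 0.0891 with SAH array 4 or 5 omitted, and 0.113, 0.111 and 0.0737 with sham array 6, 7 or 8 omitted. For Cacna1d it was 0.0973 and 0.101 with SAH array 4 or 5 omitted, and 0.143, 0.130 and 0.0872 with sham array 6, 7 or 8 omitted. The size of the difference moved less, from -1.31 to -1.62 for Rrad and from -0.93 to -1.14 for Cacna1d.

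**Figure D5:**
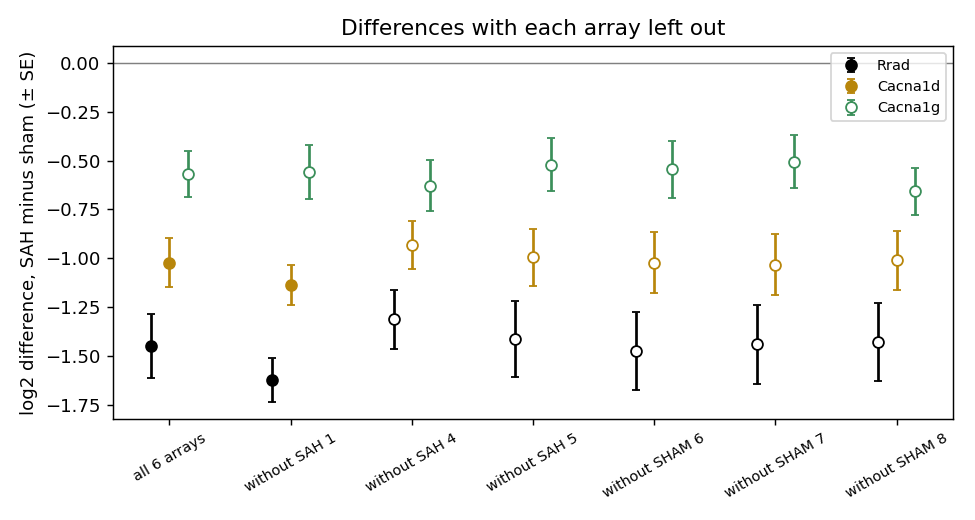
Log2 difference, SAH minus sham (vertical axis, ± SE), of Rrad, Cacna1d and Cacna1g with all 6 arrays and with each array left out, filled where the adjusted p is under 0.05. Rrad and Cacna1d are filled with all arrays and without SAH array 1 only, and all points lie below 0.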

How the data were processed

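RNA from 3 SAH and 3 sham artery samples was hybridised to Affymetrix rat arrays. The deposited values are log2 values per probe set that the authors made with Affymetrix Expression Console 1.1.2 and RMA, per the submitters' processing notes. The settings are not stated in the labels, and a genome build is not given in the sources used here. RMA compresses differences near background, and its quantile normalization hides a general change in RNA amount.

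Of 36685 probe sets, 190 controls were set aside and 36495 tested by limma (version 3.58.1, R 4.3.3), using lmFit and eBayes, two-sided and without covariates, and adjusted by Benjamini-Hochberg over all. GEO's platform annotation named 1 gene for 18511 probe sets, several for 575 and none for 17409, with symbols checked against RefSeq's GRCr8 gene table. The 95% intervals come from limma's SE and moderated degrees of freedom. The number of arrays limits the precision. No batch is given.

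The members and the 17 gene and marker lists were chosen with earlier results of these data known. Named were the members, the 4 largest differences or any call among channel subunits, up to 4 genes with the smallest p per other pathway list, and the genes most like or opposed to a called member by Pearson's r among genes above the median. Fos, Nr4a1 and Cacna2d3 were named after their values were seen. One gene that this rule names is not reported here. Alternatives were dropping dim probe sets (kept if above the array's own median on 3 arrays or more), repeating quantile normalization, subtracting array medians, eBayes with trend and robust options, weighting arrays, a threshold of 0.10, other ways to represent a gene, and leaving out each array. The fit was tested on simulated data.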

Additional observations from a re-analysis of the deposited data

How the results depend on the processing

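No paired analysis was possible because the groups share no replicate numbers. The count of members called lower was 2 and became 3, with Cacna1g added, under the filter on dim probe sets and with the fit over genes, where fewer features were tested. It ranged from 0 to 2 with an array left out, and that of members called higher was 0 in all fits. Channel subunit genes called numbered 1, and 4 under the filter and with the fit over genes, 2 with array weights, 2 at an adjusted p under 0.10, and 0 to 2 with an array left out. Over all genes 235 were called, 672 under the filter, 695 with the fit over genes, 363 with trend and robust options, 373 with array weights, 530 at an adjusted p under 0.10, and 29 (without sham array 6) to 670 (without SAH array 1) with an array left out. Of 672 genes 359 were higher, against 175 of 235.

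Among members that were not called, the sign of a difference near 0 turned for Gem when quantile normalization was repeated (0.00074) and with array weights (0.11), and with an array left out Gem ranged from -0.19 to 0.31, Cacna1c from -0.0091 to 0.14 and Cacnb3 from -0.028 to 0.077. The other 7 members kept their direction in all alternatives run. Only 3 arrays a group limit what can be seen, and 10 of 24 channel subunit probe sets were dim on all arrays.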
